A study of Homo sapiens with 12 samples.

Results

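MALAT1, NEAT1, TUG1, NORAD and KCNQ1OT1 are 5 long noncoding RNAs (lncRNAs), transcripts that are not translated and act as RNA. They were chosen by name, as the rows whose Ensembl identifier carries 1 of these symbols, and make up 5 of the 57879 genes in the expression values. Each of the 5 had a row in every library. Of these, 4 passed the filter for testing, which asked for at least 1 FPKM in at least 2 libraries, and KCNQ1OT1 did not. FPKM are fragments per kilobase of transcript and per unit of sequenced total, so levels of different genes can be set side by side.

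A549 is a human cell line grown from a lung adenocarcinoma, and its cells carried a stable lentiviral construct in every group. TIF1γ cells (replicates 2 and 3) overexpressed TIF1γ, the product of TRIM33, and vector cells (replicates 1, 2 and 3) held the empty expression vector. In sh-TAF15 cells (replicates 2 and 3) an shRNA was directed at TAF15, and sh-NC cells (replicate 2) held the control shRNA vector. The labels list 12 samples with 3 biological replicates in each of 4 groups, of which 8 are described and 4 are not analysed here. Neither the promoter, nor whether a line was a pool or 1 clone, nor whether replicates were separate infections or cultures is given in the sources used here, so p-values measure only the spread between these samples.

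MALAT1 is an abundant RNA of nuclear speckles, the nuclear bodies that store splicing factors. NEAT1 is the scaffold on which paraspeckles assemble, together with the proteins NONO and SFPQ and FET family proteins such as TAF15. Both RNAs end in a triple helix in place of a poly(A) tail, after RNase P has cut off a tRNA-like RNA, although NEAT1 also has a short polyadenylated form. TUG1 is a spliced lncRNA that has been linked to Polycomb repression. NORAD is cytoplasmic for the most part and binds Pumilio proteins such as PUM2, which destabilise mRNAs. KCNQ1OT1 is transcribed antisense from within KCNQ1 on the paternal chromosome and silences imprinted genes around it. Location in the cell was not measured.

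The sequence elements behind these roles are shown from the GENCODE 29 transcripts on GRCh38. The Pumilio motif TGTANATA, searched on the transcript strand, occurred 15 times in the 5339 bases of NORAD. Only 4 of 13534 transcripts of tested genes (0.0296%), NORAD among them, held as many, the highest number was 17, and 29.6% held any. NORAD had 3 pairs of motifs whose starts were 9 bases apart. They are shown in 60-base windows on the minus strand, 5′ to 3′, with the motifs in capitals, because they are the densest stretches of Pumilio motifs in NORAD.
NORAD, chr20:36049482-36049541: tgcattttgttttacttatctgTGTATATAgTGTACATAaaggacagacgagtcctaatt
NORAD, chr20:36048285-36048344: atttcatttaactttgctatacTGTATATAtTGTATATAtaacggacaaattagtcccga
NORAD, chr20:36047649-36047708: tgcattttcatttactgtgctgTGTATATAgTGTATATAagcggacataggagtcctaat
Among 855445 windows of 60 bases laid end to end over the same transcripts, 0.632% held at least 1 whole motif and 0.0146% at least 2. The NORAD windows were instead centred on motif pairs and hold 2 by choice, so these shares do not measure their rarity. The longest transcripts of NEAT1, TUG1 and KCNQ1OT1 held 6, 2 and 9 motifs in 22743, 7469 and 91667 bases, and MALAT1 held 0 in 8708 bases. That is 2.81 motifs per kb in NORAD and at most 0.268 per kb in the other 4.

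**Figure D1:**
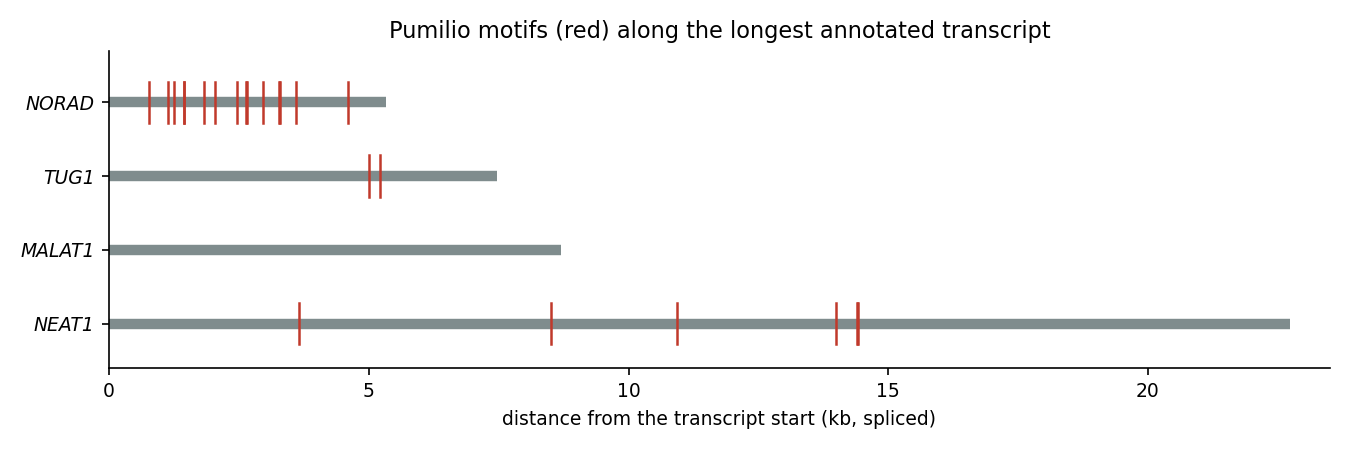
Positions of the Pumilio motif (red ticks) along the longest annotated transcript of NORAD, TUG1, MALAT1 and NEAT1 (grey bars, to scale), with distance from the transcript start in kb on the x axis. NORAD carries 15 motifs, TUG1 2, MALAT1 0 and NEAT1 6, and close pairs overlap at this scale.

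The 3′ ends of MALAT1 and NEAT1 were set side by side, since they carry the triple helix that stands in for a poly(A) tail. The 100 bases up to the shared A-rich stretch are given 5′ to 3′ on the plus strand, with the words of 11 letters that both RNAs share in capitals.
MALAT1, chr11:65506017-65506116: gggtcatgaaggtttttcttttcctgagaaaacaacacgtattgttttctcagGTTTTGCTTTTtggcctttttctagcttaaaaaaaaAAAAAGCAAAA
NEAT1, chr11:65445441-65445540: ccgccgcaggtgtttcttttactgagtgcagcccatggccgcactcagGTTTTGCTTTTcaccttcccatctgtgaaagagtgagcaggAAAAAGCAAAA
The words GTTTTGCTTTT and AAAAAGCAAAA were found from these ends themselves, and 1.12% and 1.31% of the 13534 transcripts hold them. Both in this order within 100 bases occurred in 3 transcripts, those of MALAT1, NEAT1 and RETREG3. The NEAT1 stretch is the end of its annotated transcript, and the MALAT1 stretch lies 353 bases before its annotated end. The tetramer GGTA, reported for RNA binding by TAF15, occurred 3.10 times per kb in MALAT1, 3.30 in NEAT1, 1.74 in TUG1, 2.25 in NORAD and 2.57 in KCNQ1OT1, against a median of 1.74 over all 13534 transcripts.

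From the values of single-transcript genes, the depth of a library was estimated at 16000000 to 21400000 fragments. TRIM33, the overexpressed gene, stood at 8.03 and 6.14 FPKM in TIF1γ libraries, against 1.27 to 2.23 FPKM in vector. The current identifier of TAF15 has no row in the values, so its silencing was not checked. Of the A549 markers, KRT8 and KRT18 were listed at 0 in both TIF1γ libraries and above 1129 FPKM in the other 6. Both met the rule that set genes aside from testing, with 0 in a library and 100 FPKM or more in another. Their zeros were treated as failed estimates and not as levels. GPX2 was at 0.0758 to 2.01 FPKM in the 3 sh libraries against 658 to 1423 FPKM in the vector and TIF1γ libraries. KRT19, AKR1C1 and AKR1B10 were also lower in every sh library than in every vector and TIF1γ library, EPCAM was at 0.436 to 3.75 FPKM over all 8, and ALDH1A1 was at 1165 to 1847 FPKM in the sh libraries against 782 to 1354 FPKM in the vector and TIF1γ libraries. Markers of leukocytes other than CD68, of fibroblasts other than COL1A1 and of endothelium were below 1 FPKM in every library, with CD3E and DCN at 0 in all 8. The endothelial marker PECAM1 has no row in the values, so its level is not known.

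MALAT1 had the highest level of the 5 in every library and ranked 14th of 1162 tested lncRNAs by its mean. It stood at 49.2 and 112 FPKM in 2 TIF1γ libraries, against 136, 217 and 91.1 FPKM in the 3 vector libraries. It stood at 55.4 and 66.4 FPKM in the 2 sh-TAF15 libraries, against 73.4 FPKM in sh-NC. The highest library, vector 2, was 4.41 times the lowest, TIF1γ 2. TIF1γ 3 lay inside the vector range and TIF1γ 2 below it, and the sh-TAF15 and sh-NC libraries all lay below the vector range. For sh-NC, 36.3% of all tested genes were also below every vector library, and for sh-TAF15 this share was not computed. By group mean the order from low to high was sh-TAF15, sh-NC, TIF1γ and vector. The TIF1γ range took in the values of both sh groups and the lowest vector library, so TIF1γ did not differ from its neighbours in this order beyond its range. MALAT1 has no poly(A) tail, and the labels name poly(A) isolation or rRNA removal without saying which was used.

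NEAT1 varied most between libraries of the same group. It stood at 6.17 and 29.3 FPKM in TIF1γ libraries, against 15.4, 7.33 and 37.1 FPKM in vector. It stood at 13.5 and 4.18 FPKM in sh-TAF15 libraries, against 14.0 FPKM in sh-NC. Each group with several libraries thus had a high and a low one, and the TIF1γ values and the vector values covered nearly the same range. The SD of NEAT1 among vector libraries was 1.15 on the log2 scale, and only 0.769% of the 13907 tested genes had a larger one. For MALAT1 the same SD was 0.577, with 7.60% of genes larger, for TUG1 it was 0.373 with 24.5% larger, and for NORAD it was 0.138 with 77.9% larger. By group mean the order from low to high was sh-TAF15, sh-NC, TIF1γ and vector. No neighbouring pair in this order differed by more than the SD within these groups. A NEAT1 value is a single level for the gene, which has 8 annotated transcripts in GENCODE 29. Its long form and its short polyadenylated form were therefore not told apart.

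TUG1 was the weakest of the 4 tested lncRNAs. It stood at 1.36 and 4.24 FPKM in TIF1γ libraries, against 6.03, 3.68 and 6.03 FPKM in vector. It stood at 5.90 and 2.83 FPKM in sh-TAF15 libraries, against 7.89 FPKM in sh-NC. TIF1γ 2 was the lowest of all 8 libraries, TIF1γ 3 lay within the vector range, and sh-NC was the highest. By group mean the order from low to high was TIF1γ, sh-TAF15, vector and sh-NC, with overlapping libraries between all neighbours but vector and sh-NC.

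NORAD had the tightest vector values. It stood at 13.2 and 23.7 FPKM in TIF1γ libraries, against 31.1, 26.1 and 26.9 FPKM in vector. It stood at 36.2 and 23.2 FPKM in sh-TAF15 libraries, against 49.98 FPKM in sh-NC. Both TIF1γ libraries lay below all 3 vector libraries, an order that 19.3% of all tested genes had. The sh-NC library lay above every other library, where 37.7% of genes had sh-NC above all vector libraries. Between these extremes, the sh-TAF15 libraries lay on either side of the vector range. NORAD has a single annotated transcript, so its FPKM could be turned into an estimated fragment number, which ran from 1126 in TIF1γ 2 to 4699 in sh-NC.

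KCNQ1OT1 was hardly detected. It stood at 0.00647 and 0.0104 FPKM in TIF1γ libraries, against 0.0250, 0.0205 and 0.0164 FPKM in vector. It stood at 0.0136 and 0.0143 FPKM in sh-TAF15 libraries, against 0.0213 FPKM in sh-NC. Over its 91667 bases this corresponds to an estimated 9.92 and 17.8 fragments in TIF1γ, 46.7, 37.98 and 32.1 in vector, 20.8 and 20.9 in sh-TAF15 and 36.2 in sh-NC. Both TIF1γ libraries lay below every vector library, an order that 19.3% of the tested genes also had. KCNQ1OT1 lies antisense within KCNQ1, and no strand-marking step is given in the sources used here, so fragments of one cannot be told apart from those of the other. KCNQ1 itself, a potassium channel gene, stood at 0.673 and 0.963 FPKM in TIF1γ libraries, against 0.426, 0.255 and 0.525 FPKM in vector. KCNQ1 did not pass the filter for testing either.

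**Figure D2:**
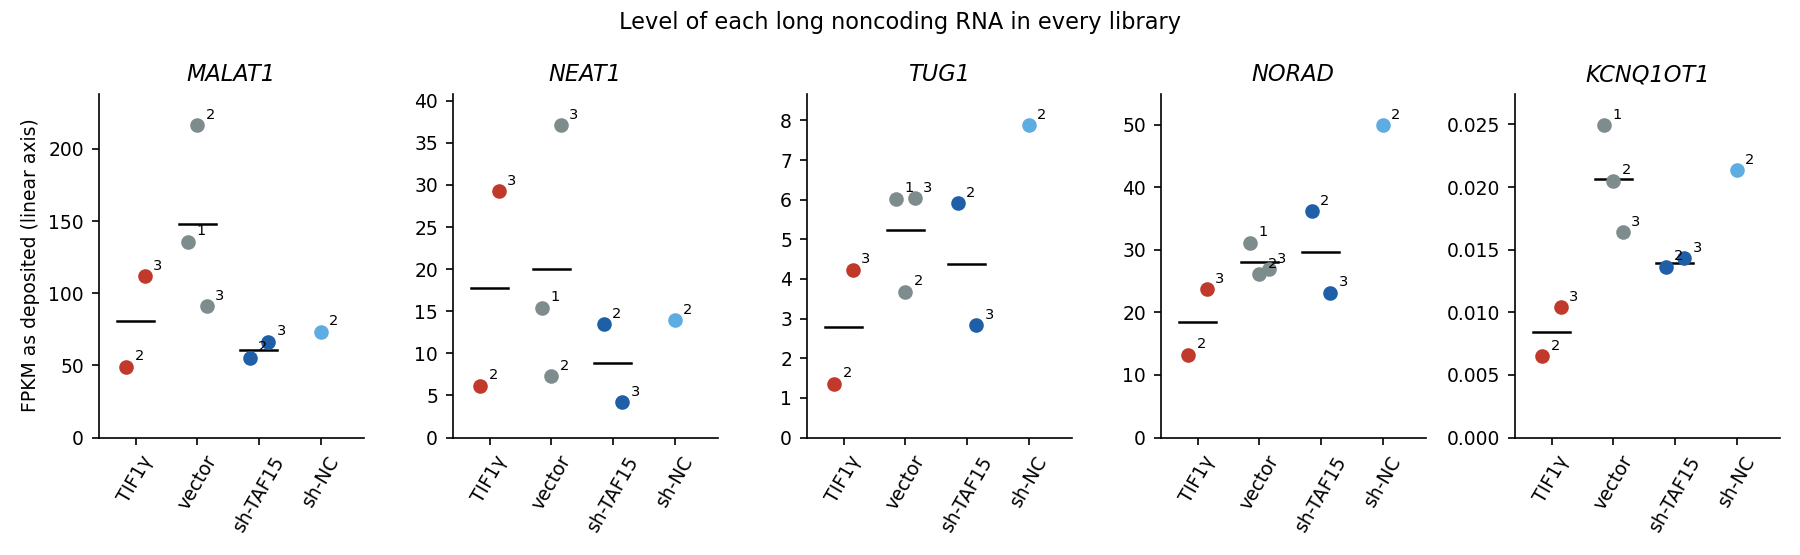
FPKM of each lncRNA as deposited (y axis, linear, 1 scale per panel) in every library, by group on the x axis; numbers beside points are replicate numbers and black lines are means of groups with several libraries. Replicate 2 of TIF1γ is the lowest library for 4 of the 5 lncRNAs, and NEAT1 has a high and a low library in each replicated group.

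The first comparison asks whether TIF1γ overexpression goes with a different level of these RNAs. All 4 tested lncRNAs had fitted values below vector, where 48.7% of all tested genes did, and none passed the test over all genes. MALAT1 averaged 80.6 ± 44.4 FPKM (SD, n = 2) in TIF1γ libraries and 148 ± 63.7 FPKM (SD, n = 3) in vector, a log2 fold change of −0.98 (SE 0.41; limma, adjusted p = 0.235). NORAD averaged 18.5 ± 7.43 FPKM (SD, n = 2) in TIF1γ and 28.1 ± 2.71 FPKM (SD, n = 3) in vector, a log2 fold change of −0.71 (SE 0.30; limma, adjusted p = 0.230). TUG1 averaged 2.80 ± 2.04 FPKM (SD, n = 2) in TIF1γ and 5.25 ± 1.36 FPKM (SD, n = 3) in vector, and its log2 fold change was −0.87 (SE 0.40; limma, adjusted p = 0.253). For NEAT1 the means were 17.7 ± 16.3 FPKM (SD, n = 2) in TIF1γ and 19.97 ± 15.4 FPKM (SD, n = 3) in vector, with a log2 fold change of −0.31 (SE 1.06; limma, adjusted p = 0.885). Folds are on the scale of log2(scaled FPKM + 1), which understates the change of low genes such as TUG1. These are values of bulk RNA, in which fewer cells making an RNA and less of it per cell cannot be told apart.

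Limma called 3 of 13907 genes in this comparison (0.0216%), and 0 of the 4 tested lncRNAs. At an unadjusted p under 0.05 there were 2 of 4, MALAT1 and NORAD, where 19.9% of all genes passed. The libraries of both groups did not overlap for 1 of 4, NORAD, in the lower direction, where 19.3% of genes did so. The 95% interval of the log2 fold change ran from −1.89 to −0.06 for MALAT1, from −1.36 to −0.06 for NORAD, from −1.74 to 0.005 for TUG1 and from −3.08 to 2.46 for NEAT1. The size rested on TIF1γ 2. Without this library the log2 fold changes were −0.30 for MALAT1, 0.81 for NEAT1, −0.23 for TUG1 and −0.22 for NORAD, and without TIF1γ 3 they were −1.65, −1.43, −1.51 and −1.19 in the same order. Without vector 3, NEAT1 had 0.28.

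KCNQ1OT1, tested alone on log2 FPKM, was 0.404 times as high in TIF1γ libraries as in vector by geometric mean, with an exact two-sided permutation p of 0.2, the smallest that 2 against 3 libraries can give.

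The second comparison asks the same of TAF15 silencing, and here TAF15 is a protein of the paraspeckles that NEAT1 builds. All 4 tested lncRNAs were lower in both sh-TAF15 libraries than in the lone sh-NC library, and 37.8% of all tested genes were. NORAD averaged 29.7 ± 9.20 FPKM (SD, n = 2) in sh-TAF15 and had 49.98 FPKM in sh-NC, a log2 fold change of −0.83 (SE 0.40; limma, adjusted p = 0.889). TUG1 averaged 4.37 ± 2.17 FPKM (SD, n = 2) in sh-TAF15 and had 7.89 FPKM in sh-NC, a log2 fold change of −0.83 (SE 0.54; limma, adjusted p = 0.951). NEAT1 averaged 8.81 ± 6.56 FPKM (SD, n = 2) in sh-TAF15 and had 14.0 FPKM in sh-NC, a log2 fold change of −0.84 (SE 1.42; limma, adjusted p = 0.962). MALAT1 averaged 60.9 ± 7.83 FPKM (SD, n = 2) in sh-TAF15 and had 73.4 FPKM in sh-NC, a log2 fold change of −0.34 (SE 0.55; limma, adjusted p = 0.962).

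None of the 4 was called, where limma called 8 of 13907 genes (0.0575%), and 0 of 4 had an unadjusted p under 0.05, as 5.62% of genes did. The fit assumes that the lone sh-NC library varies like the other groups. For NEAT1 the 95% interval, from −4.56 to 2.88, leaves room for a large difference either way. NEAT1 had −1.60 without sh-TAF15 2 and −0.08 without sh-TAF15 3, NORAD had −1.17 and −0.49, and TUG1 −1.27 and −0.39. KCNQ1OT1 was 0.654 times as high in sh-TAF15 as in sh-NC, with an exact two-sided permutation p of 0.667, the smallest that 2 against 1 can give.

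The difference between the TIF1γ effect and the TAF15 silencing effect was tested directly. It was −0.64 for MALAT1 (SE 0.69), 0.53 for NEAT1 (SE 1.77), −0.04 for TUG1 (SE 0.67) and 0.12 for NORAD (SE 0.50), all on the log2 scale. The limma adjusted p rounded to 1.00 for each, 0 of 4 had an unadjusted p under 0.05, as 3.60% of genes did, and 6 genes (0.0431%) were called over all genes. No difference between both manipulations was therefore detectable for these RNAs.

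**Figure D3:**
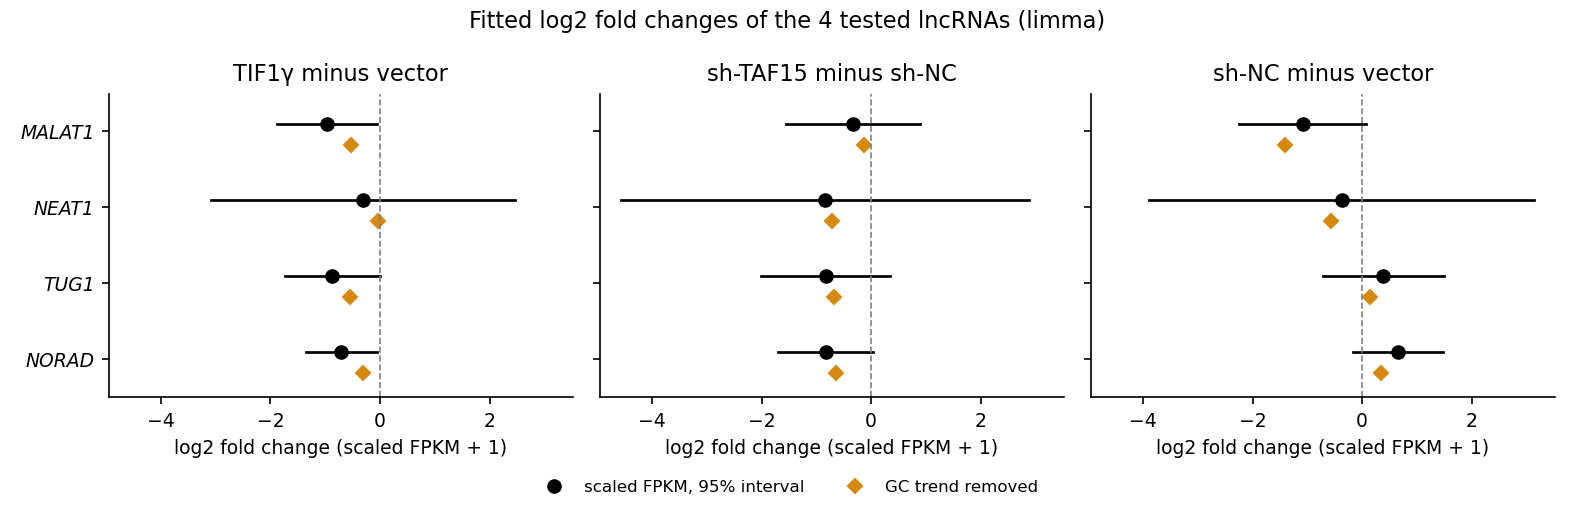
Fitted log2 fold changes (x axis) of the 4 tested lncRNAs for TIF1γ over vector (left), sh-TAF15 over sh-NC (middle) and sh-NC over vector (right), with 95% intervals (black) and the value after the GC trend was removed from each library (orange diamonds). In the left panel MALAT1 moves from −0.98 to −0.53 and NORAD from −0.71 to −0.30 with the trend removed; the NEAT1 intervals are the widest.

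Both control lines were compared to see how far levels differ between the lines that neither overexpress TIF1γ nor carry the TAF15 shRNA. This comparison shares its vector libraries with the TIF1γ comparison and its sh-NC library with the TAF15 comparison. MALAT1 had 73.4 FPKM in sh-NC, below the lowest vector library at 91.1 FPKM, and its log2 fold change was −1.08 (SE 0.52; limma, adjusted p = 0.204). NORAD (0.64, SE 0.38) and TUG1 (0.38, SE 0.51) were above all vector libraries in sh-NC, with limma adjusted p values of 0.284 and 0.649. NEAT1 lay within the vector range (−0.38, SE 1.34; limma, adjusted p = 0.882), as did KCNQ1OT1. Limma called 1529 genes here, 526 higher (3.78% of those tested) and 1003 lower (7.21%), among them 26 higher and 95 lower of 1162 tested lncRNAs, and 0 of these 4. At an unadjusted p under 0.05, 0 of the 4 passed, where 27.9% of genes did. Being below all vector libraries, as MALAT1 was, held for 36.3% of all genes, and being above them, as NORAD and TUG1 were, for 37.7%. The split of calls depended on the scaling, with 899 higher and 782 lower without scaling and 519 higher and 709 lower with each library divided by its sum. These scalings moved the median of all genes to 0.16 and 0.18, from 0.014, and none of the 4 lncRNAs changed its direction under them in any comparison.

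Ratios of these RNAs to each other within a library do not depend on how libraries are scaled. MALAT1 was 7.97 and 3.83 times as high as NEAT1 in TIF1γ libraries, against 8.79, 29.6 and 2.45 times in vector. In sh-TAF15 libraries it was 4.12 and 15.9 times as high, against 5.25 times in sh-NC. The highest ratio was 12.1 times the lowest, both in vector, so the largest contrast between these nuclear body RNAs was between replicates of 1 control group. MALAT1 over NORAD was 1.53 and 2.87 in sh-TAF15 and 1.47 in sh-NC, below the 3.39 to 8.30 of vector, and 3.72 and 4.72 in TIF1γ lay within the vector values. NEAT1 was above NORAD in 2 libraries, TIF1γ 3 and vector 3, at 1.23 and 1.38 times. TUG1 over NORAD was the steadiest, from 0.103 in TIF1γ 2 to 0.224 in vector 3.

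**Figure D4:**
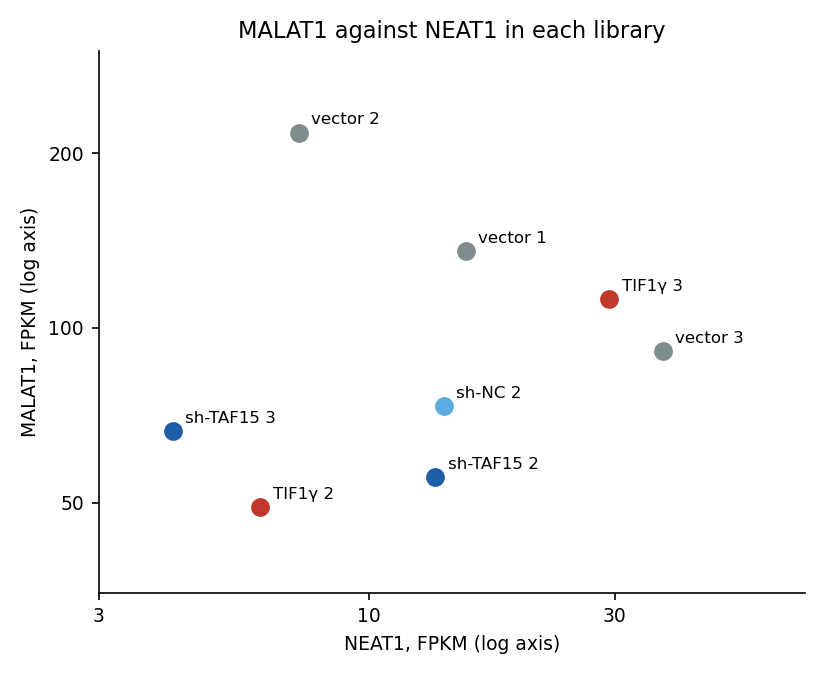
MALAT1 against NEAT1 in FPKM (both axes logarithmic), 1 point per library, coloured by group. Vector 2 has the highest MALAT1 with NEAT1 at 7.33 FPKM, and vector 3 has the highest NEAT1, 37.1 FPKM, with MALAT1 at 91.1 FPKM.

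The libraries differed in how values followed the base composition of transcripts, and the 4 tested lncRNAs are AT-rich. Their longest transcripts have 40.3 to 44.1% GC, against a median of 49.1% over 13534 transcripts. Across these genes, which are not independent replicates, the deviation from the mean of all libraries had a Spearman rho with GC percent of 0.716 in TIF1γ 2 and 0.463 in TIF1γ 3. The 3 vector libraries had −0.285, −0.149 and 0.279, the 2 sh-TAF15 libraries −0.457 and −0.266, and sh-NC −0.538. With the GC trend removed, the TIF1γ log2 fold changes were −0.53 for MALAT1, −0.54 for TUG1, −0.30 for NORAD and −0.04 for NEAT1, with limma adjusted p values of 0.727 or more. The sh-TAF15 values were −0.13 for MALAT1, −0.72 for NEAT1, −0.69 for TUG1 and −0.64 for NORAD after the removal. In sh-NC against vector, the MALAT1 value was farther from 0 after the removal, at −1.41 (limma, adjusted p = 0.081), as was that of NEAT1, at −0.57. NORAD and TUG1 were nearer to 0, at 0.35 and 0.15.

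In single libraries, the part along the GC and length trend varied. In TIF1γ 2, MALAT1 was 0.92 log2 units below its mean over all libraries, and the trend for a transcript of its GC and length was −0.70. NORAD in TIF1γ 2 was at −1.05 with a trend of −0.63, and TUG1 at −1.23 with −0.56. NEAT1 deviated by 1.62 in vector 3 and by −1.55 in sh-TAF15 3, where the trend was −0.02 and 0.09. MALAT1 in vector 2 was at 1.33 with a trend of −0.02. Whether RNA quality or the selection of RNA moves with these values was not tested, as the labels give a RIN above 6.5 for the samples without single values.

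**Figure D5:**
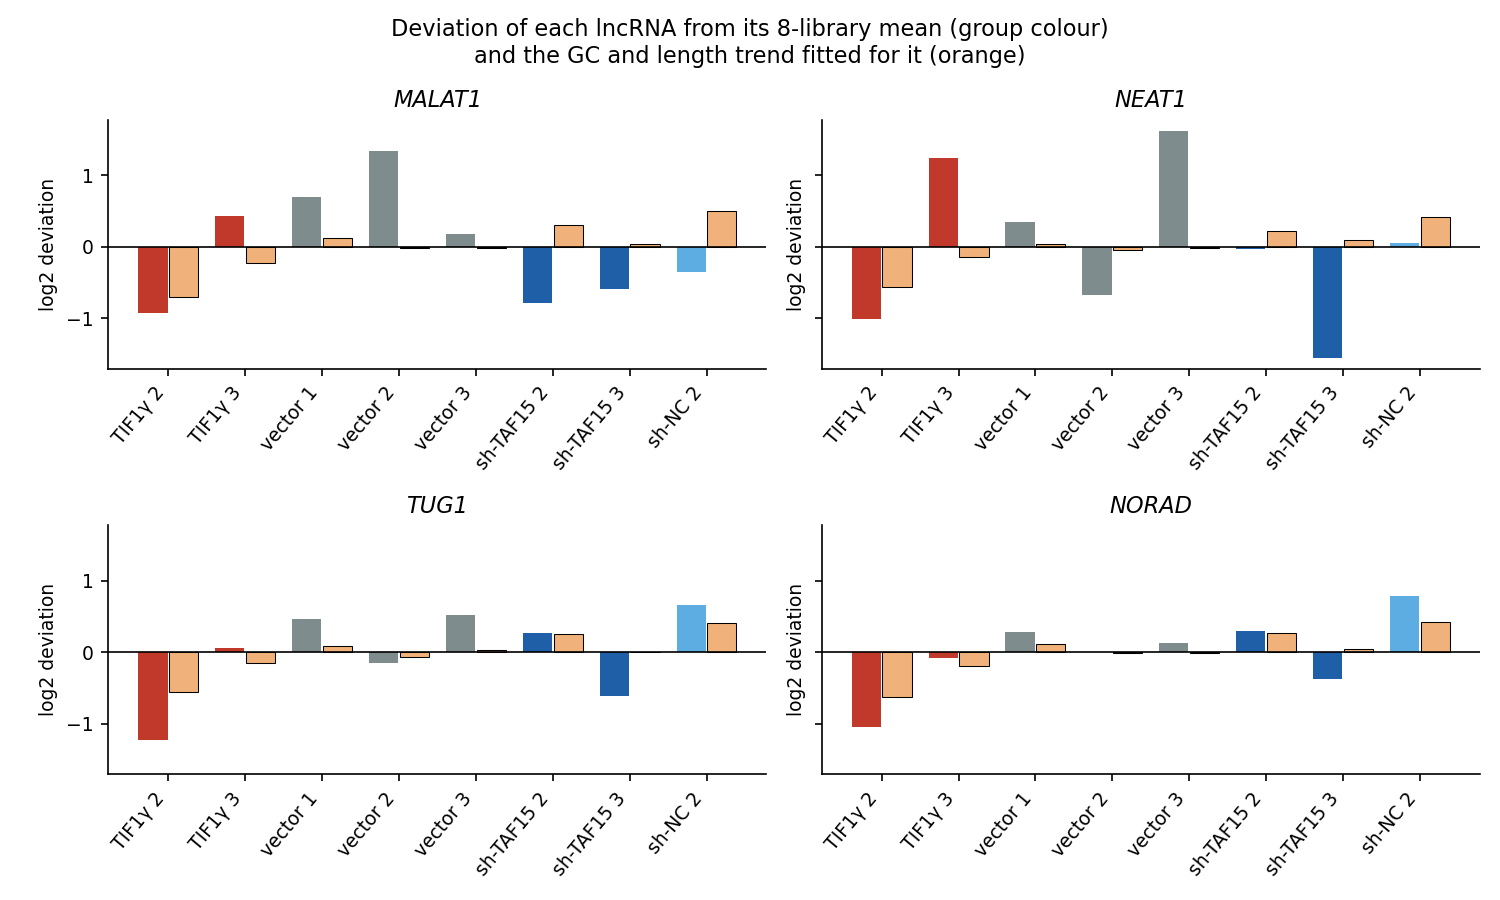
Deviation of the 4 tested lncRNAs from their mean over the 8 libraries in log2 units (left bars, coloured by group) and the part fitted from GC percent and length over all genes (right bars, orange). In TIF1γ 2 MALAT1 lies at −0.92 with a trend of −0.70, while NEAT1 in vector 3 lies at 1.62 with a trend of −0.02.

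The proteins that share nuclear bodies with NEAT1 and MALAT1 were not called under either manipulation. Over all tested genes, limma called only 0.0216% under TIF1γ and 0.0575% under TAF15 silencing. At these shares, 0 calls in a short list say little about its members, here and in the lists below. Of 25 listed paraspeckle proteins 24 were tested, as the current identifier of TAF15 has no row in the values. Of these, 16 had fitted values below 0 and 8 above 0 in TIF1γ against vector, with a median of −0.23 beside 0.017 over all genes, and 0 were called. TARDBP, the RNA-binding protein TDP-43, stood at 21.9 and 24.6 FPKM in TIF1γ libraries, against 44.6, 44.04 and 28.96 FPKM in vector (log2 fold change −0.78; limma, adjusted p = 0.200). MATR3, a nuclear matrix RNA-binding protein, had −0.78 in the same comparison with the same adjusted p. In sh-TAF15 against sh-NC, 18 of the 24 were below 0 and 0 were called, with a median of −0.15 beside −0.0031 over all genes. HNRNPH3 and MATR3 had the lowest p there, with log2 fold changes of −0.62 and −0.57 (limma, adjusted p = 0.896 and 0.921). Between the control lines, sh-NC over vector, 21 of the 24 were above 0, with a median of 0.45 beside 0.014 over all genes. In that comparison 0 of the 24 were called, where 3.78% of all tested genes were called higher and 7.21% lower. HNRNPF had 0.93 and MATR3 0.80 there (limma, adjusted p = 0.051 and 0.116). The share of all genes above or below 0 was not computed for either comparison with sh-NC, here or for the lists below.

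Of 20 nuclear speckle proteins, 16 were below 0 in TIF1γ against vector (median −0.30) and 15 in sh-TAF15 against sh-NC (median −0.15; −0.044 with the GC trend removed), and 0 were called in both. SF3B1, a subunit of the U2 snRNP, and CLK1, a kinase of SR proteins, had −0.92 and −0.98 under TIF1γ (limma, adjusted p = 0.200 for each). CLK1 and SRSF6, an SR splicing factor, had −0.75 and 0.50 under TAF15 silencing (limma, adjusted p = 0.913 and 0.943). Over vector, sh-NC had all 20 above 0 (median 0.35), and SRSF1, an SR splicing factor, was the 1 call of 20, where 3.78% of all tested genes were called higher. It stood at 235 FPKM in sh-NC, against 110, 94.3 and 80.5 FPKM in vector (log2 fold change 1.13; limma, adjusted p = 0.034).

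The 18 listed factors linked to the 3′ ends of MALAT1 and NEAT1 include some of RNA decay, such as MTREX. Of these 18, 13 were below 0 in TIF1γ against vector (median −0.25), and 0 were called. DHX9, an RNA helicase, stood at 15.4 and 14.9 FPKM in TIF1γ, against 39.4, 41.8 and 21.0 FPKM in vector. Its log2 fold change was −1.14, and that of MTREX, the helicase that feeds RNA to the nuclear exosome, was −1.15 (limma, adjusted p = 0.200 for each). In sh-TAF15 against sh-NC 10 of 18 were below 0 (median −0.04) with 0 calls, and MTREX had −0.62 and RPP25 0.40 (limma, adjusted p = 0.950 and 0.954). Between the control lines their median was 0.19 in sh-NC over vector and 0.028 with the GC trend removed. Of these, 1 of 18 was called lower, where 7.21% of all tested genes were. It was RPP25, a subunit of RNase P, at 15.7 FPKM in sh-NC against 40.8, 43.0 and 32.2 FPKM in vector (log2 fold change −1.41; limma, adjusted p = 0.012).

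Among 8 protein partners of NORAD, 6 were below 0 in TIF1γ against vector (median −0.36), 7 in sh-TAF15 against sh-NC (median −0.28) and 1 in sh-NC against vector (median 0.59), with 0 called in any of the 3. PUM2, the Pumilio protein that NORAD binds, stood at 3.84 and 7.46 FPKM in TIF1γ libraries, against 13.3, 9.78 and 10.7 FPKM in vector. In sh-TAF15 libraries it stood at 13.0 and 9.10 FPKM, against 20.2 FPKM in sh-NC. Its log2 fold changes were −1.0 and −0.89 (limma, adjusted p = 0.200 and 0.889). TOP1, DNA topoisomerase I, had −0.96, −0.45 and 1.12 in the 3 comparisons (limma, adjusted p = 0.200, 0.952 and 0.056). CDC5L, a splicing factor, had 0.81 in sh-NC against vector (limma, adjusted p = 0.138).

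Of 10 tested Polycomb, G9a and DNA methylation genes, which have been linked to TUG1 or KCNQ1OT1, 8 were below 0 in TIF1γ against vector (median −0.35) and 3 in sh-TAF15 against sh-NC (median 0.065), with 0 calls. SUZ12, a core subunit of Polycomb complex PRC2, and RBBP7, a histone-binding subunit, had −1.05 and −0.67 under TIF1γ (limma, adjusted p = 0.200 and 0.215). EZH1 and SUZ12 had −0.56 and −0.53 under TAF15 silencing (limma, adjusted p = 0.952 for each). In sh-NC against vector the median was 0.28 with 0 calls, and SUZ12 and RBBP4 had 0.99 and 0.60 (limma, adjusted p = 0.098 and 0.215).

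With the GC trend removed, the medians in TIF1γ against vector were −0.017 for paraspeckle proteins, −0.15 for nuclear speckle proteins, −0.066 for the 3′ end factors, −0.23 for the NORAD partners and −0.19 for the Polycomb group, all nearer to 0 than before. In sh-TAF15 against sh-NC they were −0.12 for paraspeckle proteins and 0.018 for the 3′ end factors after the removal. For the NORAD partners and the Polycomb group they were −0.18 and 0.033 there. In sh-NC against vector, paraspeckle proteins had 0.42 and nuclear speckle proteins 0.29 after the removal. The NORAD partners had 0.40 and the Polycomb group 0.21 in that comparison.

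The imprinted region at 11p15, in which KCNQ1OT1 lies, had 9 tested genes of 14 listed. The list spans the wider region, H19 and IGF2 included, and is not limited to genes that KCNQ1OT1 silences. Of these, 7 were above 0 in TIF1γ against vector (median 0.54; 0.14 with the GC trend removed) and 8 in sh-TAF15 against sh-NC (median 0.45; 0.18 with the GC trend removed), and 0 were called. SLC22A18, a transporter gene of the KCNQ1OT1 domain, stood at 51.6 and 44.6 FPKM in TIF1γ libraries, against 22.4, 24.8 and 32.3 FPKM in vector. In sh-TAF15 libraries it stood at 15.9 and 17.9 FPKM, against 7.63 FPKM in sh-NC. Its log2 fold changes were 0.77 and 0.99 (limma, adjusted p = 0.200 and 0.569). TSSC4 had 0.66 under TIF1γ, and CDKN1C, a cyclin-dependent kinase inhibitor that KCNQ1OT1 silences on the paternal copy, 1.01 under TAF15 silencing (limma, adjusted p = 0.208 and 0.833). CDKN1C was near the level of the filter, at 1.03 and 2.42 FPKM in sh-TAF15 libraries, against 0.247 FPKM in sh-NC. In sh-NC against vector (median −0.30; 0.25 with the GC trend removed), 3 of 9 fell, where 7.21% of all tested genes were called lower. They were SLC22A18AS (log2 fold change −2.72; limma, adjusted p = 1.64e-04), H19 (−2.72; limma, adjusted p = 2.54e-04) and SLC22A18 (−1.82; limma, adjusted p = 0.0018). KCNQ1OT1 itself had 0.0213 FPKM in sh-NC, inside the vector range of 0.0164 to 0.0250 FPKM. SLC22A18 and SLC22A18AS overlap on opposite strands, so their fragments cannot be told apart.

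Other lncRNAs give the background for these 5. Of 1162 tested lncRNAs, 723 had fitted values above 0 in TIF1γ against vector with a median of 0.12, while the 4 tested here were below 0. In sh-TAF15 against sh-NC the median over all lncRNAs was 0.13, and in sh-NC against vector it was −0.36. Of 27 tested lncRNAs known by name, 14 were below 0 under TIF1γ (median −0.05) and 12 under TAF15 silencing (median 0.06), with 0 calls in both. RMRP, the RNA of RNase MRP, stood at 34.6 and 27.8 FPKM in TIF1γ libraries, against 4.69, 17.7 and 2.31 FPKM in vector (log2 fold change 2.12; limma, adjusted p = 0.206). DLEU2, a host transcript of microRNAs, had −1.15 in that comparison with the same adjusted p. FTX and LINC00963 had −0.89 and 0.77 under TAF15 silencing (limma, adjusted p = 0.822 and 0.889). FTX was near the level of the filter, at 0.291 and 0.306 FPKM in sh-TAF15 libraries, against 1.43 FPKM in sh-NC. In sh-NC against vector (median −0.0097), 2 of the 27 fell, H19 and LINC-PINT, a share near the 7.21% of all tested genes called lower. LINC-PINT had a log2 fold change of −1.69, with 2.24 FPKM in sh-NC, against 7.67, 8.58 and 9.18 FPKM in vector (limma, adjusted p = 0.0058).

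None of the tested neighbouring genes named here was called under TIF1γ or under TAF15 silencing, where 0.0216% and 0.0575% of all tested genes were. FRMD8, which lies 9249 bases upstream of NEAT1 on the same strand in GRCh38, stood at 31.4 and 22.1 FPKM in TIF1γ libraries, against 22.5, 19.2 and 18.7 FPKM in vector. FRMD8 had a log2 fold change of 0.30 under TIF1γ (limma, adjusted p = 0.468). MORC2, which lies 947 bases from TUG1 on the other strand, had −0.35 under TIF1γ and 0.09 under TAF15 silencing (limma, adjusted p = 0.438 and 0.988). SMTN, 84710 bases away on the other side of TUG1, had 0.36 and −0.05 (limma, adjusted p = 0.426 and 0.994). EPB41L1, 40544 bases from NORAD, had −0.22 and −0.18 (limma, adjusted p = 0.743 and 0.977). CNBD2, 14922 bases away on the other side of NORAD, had at most 0.140 FPKM in any library. The antisense lncRNAs annotated over MALAT1 and TUG1, AP000769.2, AC004542.1 and AC004542.2, were listed at 0 in all 8 libraries. TRPM5, which lies 185283 bases from KCNQ1OT1, was also listed at 0 in all 8.

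The genes whose log2 level ran most like each lncRNA over the 8 libraries were named among 10593 genes with a mean of at least 2 FPKM. These correlations are descriptions over few libraries that also differ in the GC trend. MALAT1 ran most like RARB, NSMCE2 and ACP1 (Pearson r 0.960, 0.957 and 0.946). NEAT1 ran most like USP3, STPG1 and PNMA2 (r 0.976, 0.973 and 0.969). TUG1 ran most like CAST, USP9X and RPS6KA3 (r 0.981, 0.981 and 0.979), and NORAD most like RLIM, PREPL and OGA (r 0.990, 0.988 and 0.984). With the GC trend removed, RLIM stayed first for NORAD (r 0.977) and USP9X and RPS6KA3 stayed among the first 3 for TUG1 (r 0.986 and 0.973), while the 3 genes nearest to MALAT1 and to NEAT1 were others. RLIM, PREPL and OGA transcripts have 38.9, 37.4 and 44.0% GC, close to the 41.6% of NORAD.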

How the data were processed

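RNA sequencing values of 8 A549 libraries were used. The deposited values are FPKM on a linear scale, and how the authors computed them is not stated. Per the submitters' processing notes, cutadapt 1.9.1, HISAT2 2.0.1, HTSeq 0.6.1 and GRCh37 were used. GENCODE 29 (GRCh38) gave names, transcripts, lengths and GC percent; coordinates are GRCh38. Low values of single-transcript genes over 1000 bases came out as whole multiples of 1 fragment, within 0.05, for 81.6 to 86.8% of values, which gave the estimated fragments; lengths may differ from those the authors used.

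Libraries were brought to a common scale with trimmed means of their log2 ratios (30% of ratios and 5% of abundances trimmed), a pseudocount of 1 was added, and 19 genes listed at 0 in 1 library but at 100 FPKM or more in another were set aside, which left 13907 genes. Limma 3.58.1 in R 4.3.3 (lmFit, eBayes with trend and robust) was fitted to the 4 groups at once (4 residual degrees of freedom, prior 9.57), with Benjamini-Hochberg adjustment over all genes and calls at an adjusted p under 0.05. KCNQ1OT1 had an exact permutation test.

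The lncRNAs, the 7 gene lists and the tests were chosen with earlier results of these data known. In each list, members past the threshold, otherwise the 2 with the lowest p per comparison, are named, with the nearest annotated genes and the 3 most alike genes, except that 1 neighbouring gene is not reported here; list members named for the difference of effects are not printed. For the alternatives, see the settings tried at the end; 4 samples are not analysed here.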

Additional observations from a re-analysis of the deposited data

How the results depend on the processing

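Under 19 alternative settings, 0 of the 4 tested lncRNAs were called in any comparison. Of 300 log2 fold changes, 280 kept their direction and 20 turned it, and the lowest adjusted p was 0.073 (limma; MALAT1, sh-NC minus vector, GC and length trend removed). The NEAT1 value turned to 0.028 in TIF1γ minus vector with the GC and length trend removed, and in sh-NC minus vector to 0.082 with the replicate block. TUG1 turned to −0.0039 in sh-NC minus vector with the GC and length trend removed. In the difference of both effects, TUG1 turned to 0.14 with the GC trend removed, 0.063 with GC and length removed, 0.24 with the replicate block and 0.36 with the block and the GC trend removed. The cause was not tested.

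Leaving out 1 library, log2 fold changes ran from −1.43 to 0.81 for NEAT1 in TIF1γ minus vector and from −0.93 to 0.22 in sh-NC minus vector. In the difference they ran from −1.32 to 0.034 for MALAT1, −0.59 to 1.65 for NEAT1, −0.68 to 0.61 for TUG1 and −0.36 to 0.61 for NORAD. Genes called ran from 1 to 295 for TIF1γ (295 without vector 3), 4 to 49 for sh-TAF15 (49 without vector 2), 3 to 18 for the difference and 1203 to 1689 for sh-NC minus vector.

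For all genes, the 3 calls of TIF1γ became 5 with a pseudocount of 0.1, 0 with no filter, with 1 FPKM in every library, or with the GC or the GC and length trend removed, and 7 with only these groups fitted. The 8 calls of sh-TAF15 became 21 with a pseudocount of 0.1, 188 with no filter, 3 and 2 with the GC and the GC and length trend removed, and 1 with only these groups fitted. The 6 calls of the difference became 103 with no filter, 0 with 1 FPKM in every library, and 2 with either trend removed.

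Whether replicate numbers pair the samples was not settled. The deviations of replicate 3 from replicate 2 correlated at 0.153 between TIF1γ and vector, −0.319 between sh-TAF15 and vector, and −0.240 between TIF1γ and sh-TAF15. These correlations were taken without removing the GC trend, and they leave out sh-NC, which has a single library. With the replicate block, calls were 44 for TIF1γ, 52 for sh-TAF15, 30 for the difference and 1000 for sh-NC minus vector; with the block and the GC trend removed they were 4 for TIF1γ, 4 for sh-TAF15, 3 for the difference and 689 for sh-NC minus vector. None of the 4 lncRNAs was called with the block.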
